A study of Mus musculus with 10 samples.

Results

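The amino acid response genes described here are targets of ATF4, a transcription factor made when cells lack amino acids or meet other stress. Kinases that sense such stress phosphorylate the translation factor eIF2alpha, most protein synthesis slows, and the Atf4 message is translated more. ATF4 then raises genes for amino acid synthesis, import and tRNA charging, and also genes that end the response. Spermatogonial stem cells, which maintain sperm production, need growth factors such as GDNF to grow in culture.

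The family had 10 listed genes, chosen by symbol, and 8 of them were found among the 20174 genes with a transcript cluster of their own: Asns, Chac1, Trib3, Shmt2, Psat1, Phgdh, Sesn2 and Ddit4. The other two, Ddit3 and Atf5, lay only on clusters that the annotation shares with a second gene, so neither has a value of its own. The 8 genes lie on chromosomes 6, 2, 2, 10, 19, 3, 4 and 10 in that order. For Phgdh, which had 2 clusters, the brighter one was used.

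RNA was measured on 10 arrays, 2 in each of 5 groups. The 0 week group held testis cells of adult DBA/2 mice sorted with magnetic beads and an antibody against CD9, a surface protein found on spermatogonial stem cells and on other cells. The 1, 2 and 3 week groups were such sorted cells after that time in Iscove-type medium supplied with the growth factors GDNF (rat, 15 ng/ml) and FGF2 (human, 10 ng/ml) and with 1% fetal bovine serum. GS cells were established DBA/2 cultures of spermatogonial stem cells kept in the same medium. All groups share the strain, and the labels name no transgene or deletion. They do not say how many animals were pooled, whether replicates were separate cultures, or whether feeder cells were used. The p-values therefore measure only the spread between these arrays, which may be technical.

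The label of stem cells was checked against marker lists. The summed signal of 16 genes of undifferentiated spermatogonia was 2901 to 2956 at 0 weeks, 3944 to 4103 at 1 week, 10604 to 10623 at 2 weeks, 8172 to 8203 at 3 weeks and 12289 to 12405 in GS cells, and 14 of the 16 rose at 2 weeks against 1 week. At 1 week against 0 weeks Gfra1, Ret, Etv5, Bcl6b, Foxo1 and Lhx1 rose, and the other genes of the 16 did not pass. A list of 7 germ cell genes did not share the higher sum at 1 week. It summed to 12939 to 13319 at 0 weeks, 1978 to 2215 at 1 week and 11332 to 11529 at 2 weeks. At 3 weeks it summed to 10446 to 10847, and in GS cells to 8851 to 11113. The 0 week cells also held much spermatid RNA, with a sum over 11 genes of 42955 to 44001, against 664 to 1183 in all cultured arrays. Fibroblast and mesenchyme genes (18 genes) summed to 8758 to 9910 at 0 weeks, 90055 to 92012 at 1 week, 13533 to 13757 at 2 weeks, 6274 to 8597 at 3 weeks and 33279 to 37379 in GS cells. No marker was at 0 on any array, but the lowest value of any gene on any array was 30.1. The absence of 0 values therefore does not show that RNA of each cell type was present. The part of these other cells in the results below was not tested. In bulk RNA, fewer cells of a type and less RNA per cell cannot be told apart. The lower quartile of the arrays was 59.5 to 73.7 and the median 112 to 125.3, and no background level is given, so whether signals near the quartile exceed it is unknown.

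**Figure D1:**
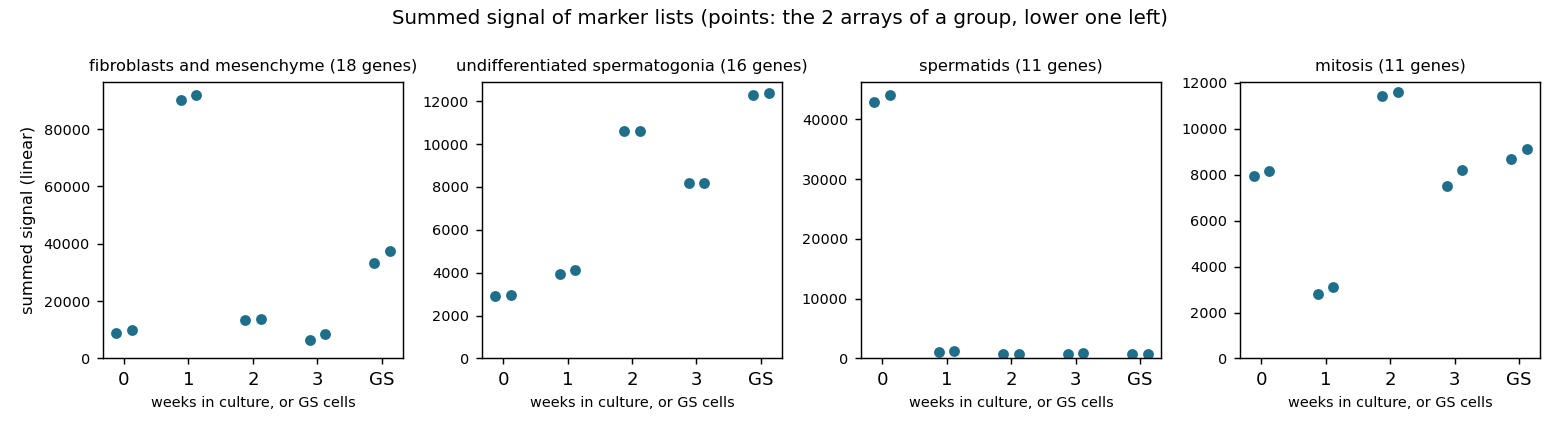
Summed linear signal of 4 marker lists (vertical axis) on the 2 arrays of each group (horizontal axis, weeks in culture or GS cells). The fibroblast sum is highest at 1 week (90055 to 92012), the spermatid sum at 0 weeks (42955 to 44001) and the sum for undifferentiated spermatogonia in GS cells (12289 to 12405).

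ATF4 acts with C/EBP partners at a composite element in the control regions of its targets. The promoters of the members were searched for TGATGNAAN on both strands, in windows of 250 bases before and 50 bases from the start site (RefSeq, build GRCm38.p6). All 8 measured genes had a window, and 3 of them, Asns, Chac1 and Trib3, held a match. Across all 32851 windows, 3.95% held one, and by gene 4.5% of 27025 genes did. The 3 promoters are shown because they hold the match. Each is written 5′ to 3′ in the direction of the gene, with the match in capitals. The Asns window is chr6:7693160-7693459 on the minus strand, and its match, TGATGAAAC, begins 23 bases before the start site. The Chac1 window is chr2:119350992-119351291 on the plus strand, and its match reads TGATGCAAC on the opposite strand, 186 to 194 bases before the start site. The Trib3 window is chr2:152344011-152344310 on the minus strand, and its match reads TGATGTAAA on the opposite strand, 13 to 21 bases after the start site.
Asns: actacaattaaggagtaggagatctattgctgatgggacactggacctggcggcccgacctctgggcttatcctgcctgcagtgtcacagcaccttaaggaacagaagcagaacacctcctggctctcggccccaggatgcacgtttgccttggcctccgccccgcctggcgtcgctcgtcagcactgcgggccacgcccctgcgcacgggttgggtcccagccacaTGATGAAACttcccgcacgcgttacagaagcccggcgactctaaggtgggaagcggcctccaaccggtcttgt
Chac1: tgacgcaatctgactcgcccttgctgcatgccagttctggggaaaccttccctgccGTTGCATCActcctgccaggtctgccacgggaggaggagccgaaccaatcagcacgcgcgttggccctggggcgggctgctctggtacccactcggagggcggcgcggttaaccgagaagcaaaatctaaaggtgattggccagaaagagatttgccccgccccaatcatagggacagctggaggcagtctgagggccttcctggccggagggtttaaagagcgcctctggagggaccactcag
Trib3: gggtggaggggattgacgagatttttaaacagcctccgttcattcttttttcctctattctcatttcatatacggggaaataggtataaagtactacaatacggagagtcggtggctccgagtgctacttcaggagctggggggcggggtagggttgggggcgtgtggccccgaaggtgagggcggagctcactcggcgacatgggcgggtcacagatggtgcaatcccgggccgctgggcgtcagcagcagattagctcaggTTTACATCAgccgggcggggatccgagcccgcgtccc
Shmt2, Psat1, Phgdh, Sesn2 and Ddit4 held no match in these windows, which says only that those letters are not there. A match is a description of sequence and was not tested as a binding site.

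Asns and Psat1, both enzymes of amino acid synthesis, were high at 1 week, low at 2 weeks and high again at 3 weeks. Asns encodes asparagine synthetase, which makes asparagine from aspartate and glutamine. Its signal was 953 and 974 at 0 weeks, 2069 and 1999 at 1 week, 960.2 and 924 at 2 weeks, 1676 and 1772 at 3 weeks, and 1560 and 1334 in GS cells. Both 1 week arrays and both 3 week arrays lay above every array of the other groups, and the 0 and 2 week arrays overlapped. The log2 change was 1.08 ± 0.08 at 1 week against 0 weeks (SE, n = 2 arrays per group, limma, adjusted p = 1.4e-06), -1.11 ± 0.08 at 2 weeks against 1 week (adjusted p = 2.0e-06), and 0.87 ± 0.08 at 3 weeks against 2 weeks (adjusted p = 0.00021). Against 3 weeks, GS cells were lower by a log2 change of -0.26 ± 0.08 (adjusted p = 0.029), a call that ended without 3 weeks replicate 1 (-0.30, adjusted p = 0.052), without 3 weeks replicate 2 (-0.22, adjusted p = 0.12) or without GS cells replicate 2 (-0.14, adjusted p = 0.19), and in a fit of only these groups (adjusted p = 0.13). Asns was higher in GS cells than at 2 weeks (0.61 ± 0.08, adjusted p = 0.00084). It also exceeded the 0 week level there (0.58 ± 0.08, adjusted p = 0.00018), a change of 0.01 with cyclic loess scaling (adjusted p = 0.92). Under that scaling Asns was lower at 2 weeks than at 0 weeks (-0.51, adjusted p = 0.0013), against -0.03 as deposited.

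Psat1 encodes phosphoserine aminotransferase, the middle enzyme of serine synthesis. It measured 153 and 191 at 0 weeks, 429 and 440 at 1 week, 271 and 268 at 2 weeks, 445 and 542 at 3 weeks, and 311 and 314 in GS cells. The 5 groups did not overlap on any pair, with 3 weeks highest and 0 weeks lowest. The order of neighbours was not resolved between 3 weeks and 1 week (0.18 ± 0.12, adjusted p = 0.20) or between GS cells and 2 weeks (0.21 ± 0.12, adjusted p = 0.25). Psat1 rose at 1 week against 0 weeks (1.35 ± 0.12, adjusted p = 3.3e-06), fell at 2 weeks against 1 week (-0.69 ± 0.12, adjusted p = 0.00065), rose at 3 weeks against 2 weeks (0.87 ± 0.12, adjusted p = 0.001) and fell in GS cells against 3 weeks (-0.65 ± 0.12, adjusted p = 0.0013). All 4 steps of Psat1 passed under every setting tried.

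Phgdh and Shmt2, the enzymes before and after Psat1 in the route from glucose to one-carbon units, did not rise in the third week. Phgdh encodes phosphoglycerate dehydrogenase, the first enzyme of serine synthesis. Its signal was 252 and 204 at 0 weeks, 581 and 520 at 1 week, 406 and 384 at 2 weeks, 386 and 373 at 3 weeks, and 504 and 537 in GS cells. The 2 and 3 week arrays overlapped, as did the 1 week and GS arrays, and the 0 week arrays lay below all others. Phgdh rose at 1 week against 0 weeks (1.28 ± 0.10, adjusted p = 2.0e-06) and fell at 2 weeks against 1 week (-0.48 ± 0.10, adjusted p = 0.0032, and -0.21, adjusted p = 0.17, with quantile scaling). The change at 3 weeks against 2 weeks was -0.06 ± 0.10 (adjusted p = 0.70). Phgdh was higher in GS cells than at 3 weeks (0.45 ± 0.10, adjusted p = 0.0053), but not with quantile scaling (0.03, adjusted p = 0.84) or cyclic loess (0.08, adjusted p = 0.61). Its dimmer cluster gave 204 and 217 at 0 weeks, 606 and 602 at 1 week, 360.2 and 312 at 2 weeks, 334 and 357 at 3 weeks, and 442 and 439 in GS cells, again highest at 1 week and lowest at 0 weeks. Unlike in the cluster used, its GS arrays lay below its 1 week arrays without overlap.

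Shmt2 encodes the mitochondrial serine hydroxymethyltransferase, which splits serine into glycine and a one-carbon unit. It measured 155 and 198 at 0 weeks, 605 and 719 at 1 week, 1045 and 1135 at 2 weeks, 812 and 863 at 3 weeks, and 946 and 1057 in GS cells. Unlike the other 7 genes it was highest at 2 weeks by its group mean, and the GS arrays overlapped those of 2 weeks. Shmt2 rose at 1 week against 0 weeks (1.91 ± 0.13, adjusted p = 4.2e-07) and again at 2 weeks against 1 week (0.72 ± 0.13, adjusted p = 0.00082). It stayed 5.70-fold above the 0 week level in GS cells (adjusted p = 8.0e-08). At 3 weeks against 2 weeks the change was -0.38 ± 0.13 (adjusted p = 0.055), and it passed as a fall with a filter on dim genes (adjusted p = 0.042), a trended and robust eBayes step (adjusted p = 0.034) or a fit of only these groups (adjusted p = 0.015). It also passed without any single array of the 0 week, 1 week or GS groups (adjusted p = 0.036 to 0.049).

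**Figure D2:**
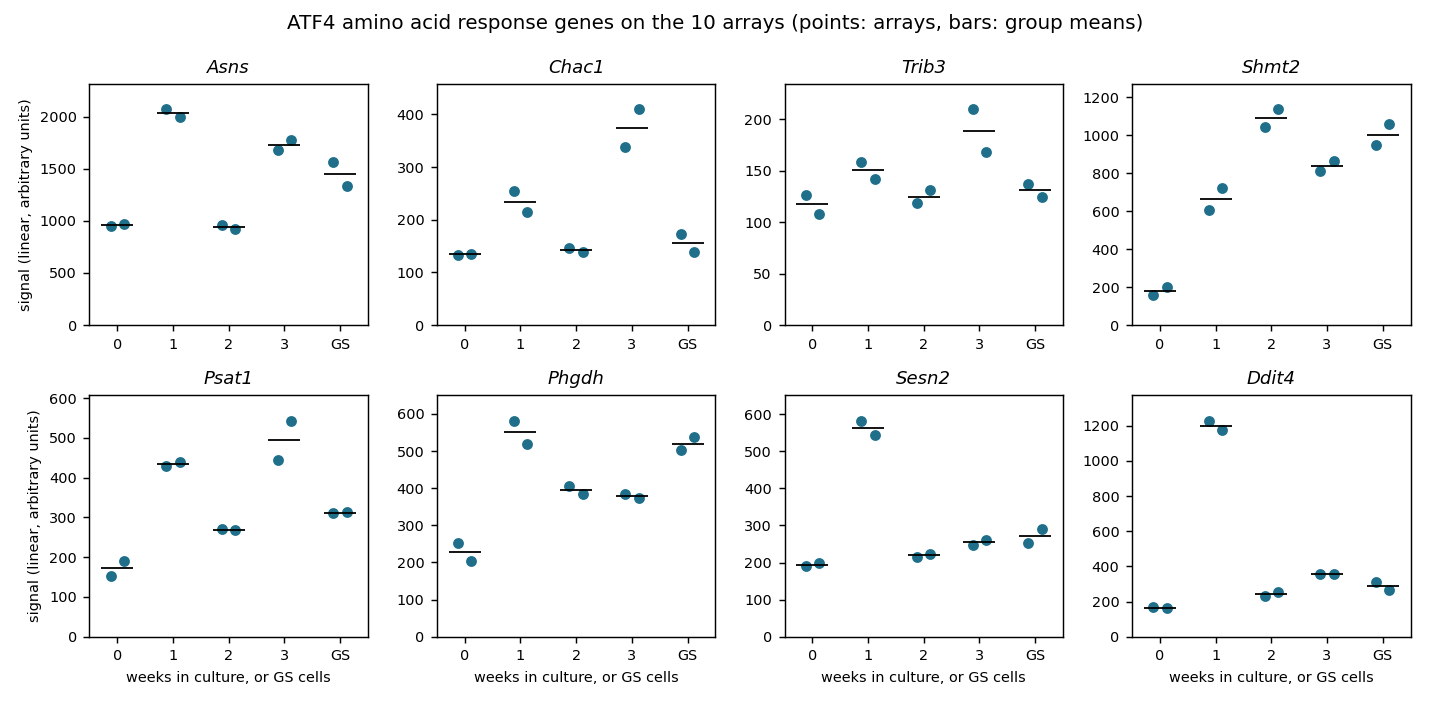
Linear signal (vertical axis, from 0) of the 8 genes on each array (points) with group means (bars), by weeks in culture or GS cells. Asns, Chac1, Trib3 and Psat1 are high at 1 and 3 weeks, Sesn2 and Ddit4 stand highest at 1 week, and Shmt2 is highest at 2 weeks (1045 and 1135).

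Chac1 and Trib3, which ATF4 induces under stress, were both highest at 3 weeks. Chac1 encodes an enzyme that breaks down glutathione. Its signal was 134 and 134 at 0 weeks, 255 and 214 at 1 week, 146 and 138 at 2 weeks, 337 and 409 at 3 weeks, and 173 and 139 in GS cells. Both 3 week arrays were above all others, and the 2 week and GS arrays overlapped. Chac1 rose 2.62-fold at 3 weeks against 2 weeks (log2 1.39 ± 0.13, adjusted p = 0.00019) and was at 0.417 of the 3 week level in GS cells (-1.26 ± 0.13, adjusted p = 4.7e-05). Both of these calls held under every setting tried. At 1 week it had risen by 0.80 ± 0.13 against 0 weeks (adjusted p = 0.00037), and 3 weeks exceeded 1 week by 0.67 ± 0.13 (adjusted p = 0.0013). The change of Chac1 in GS cells against 0 weeks was 0.21 ± 0.13 (adjusted p = 0.22), and it passed without GS cells replicate 2 (0.37, adjusted p = 0.044).

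Trib3 encodes a pseudokinase that binds ATF4 and dampens the response. It measured 127 and 108 at 0 weeks, 159 and 142 at 1 week, 119 and 131 at 2 weeks, 209.7 and 169 at 3 weeks, and 138 and 125 in GS cells. The 3 week arrays were the highest, and the 0 week, 2 week and GS arrays overlapped near the array medians. Trib3 changed by 0.59 ± 0.12 at 3 weeks against 2 weeks (adjusted p = 0.0079) and by -0.52 ± 0.12 in GS cells against 3 weeks (adjusted p = 0.0064), both passing. The rise at 3 weeks did not pass without 2 weeks replicate 1 (0.52, adjusted p = 0.074) or 3 weeks replicate 1 (0.43, adjusted p = 0.06), and the fall in GS cells did not pass without 3 weeks replicate 1 (-0.36, adjusted p = 0.054). The rise at 1 week against 0 weeks was 0.36 ± 0.12 (adjusted p = 0.029) and ended without 0 weeks replicate 2 (0.25, adjusted p = 0.20) or 1 week replicate 1 (0.28, adjusted p = 0.15).

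Sesn2 and Ddit4, which encode stress-induced inhibitors of the growth kinase complex mTORC1, had their highest signals at 1 week. Sesn2 encodes a sestrin that senses leucine. Its signal was 189.5 and 199 at 0 weeks, 582 and 544 at 1 week, 216 and 222 at 2 weeks, 247 and 262 at 3 weeks, and 251 and 290.0 in GS cells. The 1 week arrays stood far above the rest, and the 3 week and GS arrays overlapped. Sesn2 rose 2.90-fold at 1 week against 0 weeks (1.53 ± 0.08, adjusted p = 9.6e-08) and fell by 1.36 ± 0.08 on the log2 scale at 2 weeks against 1 week (adjusted p = 4.9e-07). At 3 weeks against 2 weeks its change was 0.21 ± 0.08 (adjusted p = 0.092), and it passed with quantile scaling (0.41, adjusted p = 0.0072), with cyclic loess (0.40, adjusted p = 0.011) and without either GS array (adjusted p = 0.045). For GS cells against 3 weeks it was 0.09 ± 0.08 (adjusted p = 0.42), but lower with quantile scaling (-0.31, adjusted p = 0.011) and cyclic loess (-0.24, adjusted p = 0.036). The direction of that step in Sesn2 therefore turns with the scaling.

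Ddit4 encodes REDD1, which restrains mTORC1 through the TSC complex and is also induced by low oxygen, p53 and glucocorticoids. It measured 167 and 163 at 0 weeks, 1227 and 1175 at 1 week, 233 and 253 at 2 weeks, 357 and 354 at 3 weeks, and 313 and 267 in GS cells. No pair of groups overlapped, and all 8 cultured arrays lay above both 0 week arrays. Ddit4 had the widest range of the 8 genes. It rose 7.28-fold at 1 week against 0 weeks (2.86 ± 0.09, adjusted p = 1.3e-09) and fell by 2.31 ± 0.09 on the log2 scale at 2 weeks against 1 week (adjusted p = 1.8e-08). It rose at 3 weeks against 2 weeks (0.55 ± 0.09, adjusted p = 0.0021). The fall in GS cells against 3 weeks (-0.30 ± 0.09, adjusted p = 0.017) ended without 3 weeks replicate 1 (-0.29, adjusted p = 0.068), 3 weeks replicate 2 (-0.31, adjusted p = 0.052) or GS cells replicate 2 (-0.19, adjusted p = 0.11), and in a fit of only these groups (adjusted p = 0.08).

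Ddit3, the stress transcription factor CHOP, shared its only cluster with Mars. That cluster measured 198 and 201 at 0 weeks, 389.6 and 445 at 1 week, 154 and 142 at 2 weeks, 158 and 162 at 3 weeks, and 149 and 133 in GS cells. Its 1 week arrays were the highest, and its 3 week arrays stayed below those of 0 weeks. Atf5, a transcription factor of the mitochondrial stress response, shared a cluster with Nup62-il4i1, at 197 and 166 at 0 weeks, 368 and 316 at 1 week, 160.3 and 188 at 2 weeks, 203 and 189.6 at 3 weeks, and 196 and 168 in GS cells. These values cannot be given to either gene of a pair, and they entered no test.

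In the first week of culture all 8 genes rose. Among all 20174 genes 57.8% passed in this comparison, 30.3% rising and 27.5% falling. The members' changes ran from 0.36 to 2.86 with a median of 1.31, against a median of -0.04 over all genes. Fibroblast genes rose in 18 of 18 cases (median 3.85), with Fn1, which encodes the matrix protein fibronectin, at 10130 at 1 week and 347 at 0 weeks. Genes of mitosis fell in 11 of 11 cases (median -1.18), and spermatid genes in 11 of 11 (median -5.20).

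In the second week 6 genes fell, 1 rose and 1 did not pass, while 50.9% of all genes passed, 25.2% falling and 25.6% rising. The median change of the members was -0.70, against 0.06 over all genes. Shmt2 was the gene that rose, and Trib3 the one that did not pass (-0.27 ± 0.12, adjusted p = 0.099), though it passed with cyclic loess (-0.28, adjusted p = 0.033). Fibroblast genes fell in 18 of 18 cases (median -2.86) and mitosis genes rose in 11 of 11 (median 1.97).

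In the third week 5 genes rose (Asns, Chac1, Trib3, Psat1 and Ddit4), none fell and 3 did not pass. Of all genes 24.2% passed in the third week, with 7.71% higher and 16.5% lower. Of those calls 31.9% were higher, against 49.5% with quantile scaling and 54.8% with cyclic loess. The members' median change was 0.57, against 0.03 over all genes. Fibroblast genes moved the other way, with 13 of 18 falling and 5 not passing (median -0.52, and 6 falling with cyclic loess), and 11 of 11 mitosis genes fell (median -0.45, but 3 of 11 with cyclic loess). Markers of undifferentiated spermatogonia rose in 2 of 16 cases and fell in 7 in that week.

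In established GS cells, set against 3 weeks, 5 genes fell (Asns, Chac1, Trib3, Psat1 and Ddit4), Phgdh rose and 2 did not pass. Over all genes 47.1% passed, with 17.2% lower and 29.9% higher. Of those calls 63.5% were higher, against 48.2% with quantile scaling and 50.2% with cyclic loess. Without 3 weeks replicate 1 only 2 of the 8 fell, Chac1 and Psat1, and 1 rose. Fibroblast genes rose in 18 of 18 cases (median 1.77).

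**Figure D3:**
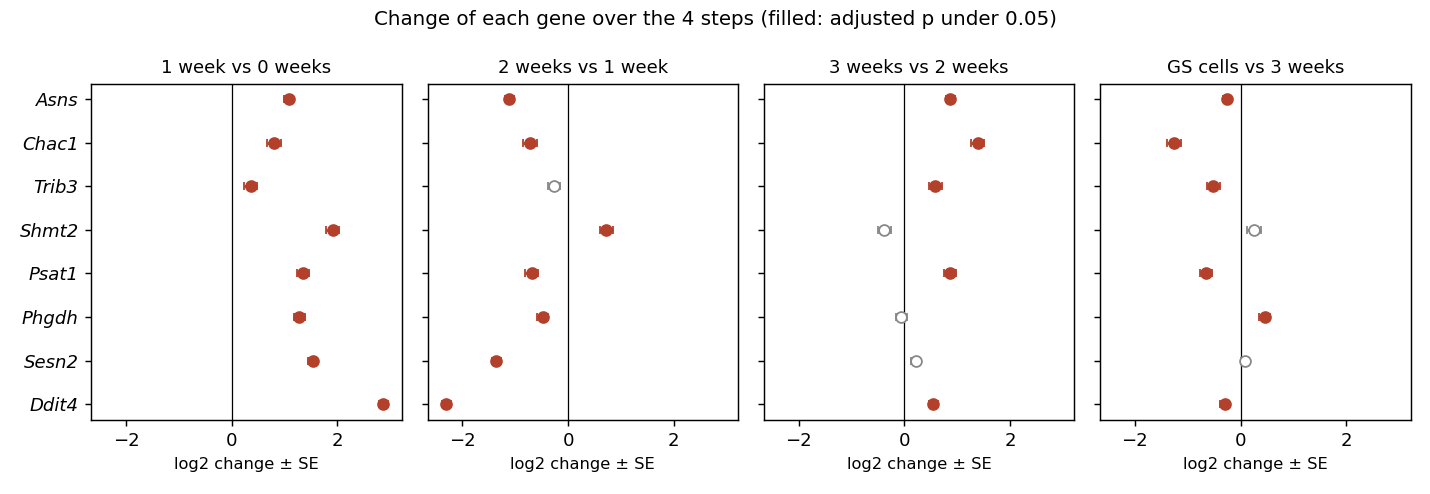
Log2 change with SE (horizontal axis) of each gene (rows) over the 4 steps, later group minus earlier group, GS cells last. Filled points passed at an adjusted p under 0.05. All 8 points are right of 0 at 1 week, and 5 filled points are right of 0 at 3 weeks, led by Chac1 at 1.39.

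Against the sorted cells, all 8 genes were higher at 3 weeks (median 0.97, against 0.10 over all genes). Of all genes 53.9% passed there, 30.1% higher and 23.9% lower. At 2 weeks 4 members were higher, while 46.7% of all genes passed, 25.4% higher and 21.3% lower. In GS cells 6 were higher, while 51.2% of all genes passed, 30.8% higher and 20.4% lower. The share of calls that were higher was 54.4% at 2 weeks, but 65.8% with median scaling and 41.0% with cyclic loess, and 60.2% in GS cells, but 44.8% with cyclic loess. With cyclic loess the calls of Asns and Sesn2 in GS cells against 0 weeks ended, Sesn2 changing by 0.08 (adjusted p = 0.43) against 0.48 as reported. Shmt2, Psat1, Phgdh and Ddit4 were higher at all of these times. At 2 weeks Asns (-0.03 ± 0.08), Chac1 (0.08 ± 0.13), Trib3 (0.09 ± 0.12) and Sesn2 (0.17 ± 0.08) did not pass. Sesn2 passed there as a rise with quantile scaling (0.25, adjusted p = 0.022) and in a fit of only these groups (adjusted p = 0.032). Asns passed there as a fall with cyclic loess (-0.51, adjusted p = 0.0013). These 3 comparisons share the 0 week arrays. The authors' deposited table gives ratios of 3 weeks to 0 weeks from 1.31 for Sesn2 to 4.77 for Shmt2. Set against 2 weeks, GS cells had more Asns (0.61 ± 0.08), Phgdh (0.40 ± 0.10, adjusted p = 0.023) and Sesn2 (0.30 ± 0.08, adjusted p = 0.03), while 21.1% of all genes passed, 15.9% rising and 5.18% falling. Of those calls 75.4% were higher, against 50.2% with quantile scaling, 56.2% with median scaling and 58.0% with cyclic loess. The calls of Phgdh and Sesn2 ended without either 2 week array (adjusted p = 0.081 and 0.17 without replicate 1, 0.15 and 0.12 without replicate 2), and without GS cells replicate 2 (adjusted p = 0.079 and 0.13). They also ended with each other scaling, at 0.23 for Phgdh and 0.10 for Sesn2 with quantile scaling (adjusted p = 0.22 and 0.43), 0.32 and 0.22 with median scaling (adjusted p = 0.064 and 0.17), and 0.25 and 0.16 with cyclic loess (adjusted p = 0.15 and 0.19). The call of Sesn2 ended in a fit of only these groups as well (adjusted p = 0.083).

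The 1 week arrays were the peak for some members only. At 3 weeks against 1 week Chac1, Trib3 and Shmt2 were higher, Asns, Phgdh, Sesn2 and Ddit4 were lower, and Psat1 did not pass, while 64.3% of all genes passed, 35.1% higher and 29.2% lower. Ddit4 had the largest of these changes (-1.76 ± 0.09, adjusted p = 8.4e-08). Trib3 (0.32 ± 0.12, adjusted p = 0.04) and Shmt2 (0.34 ± 0.13, adjusted p = 0.036) lay closer to the threshold. So did Asns (-0.24 ± 0.08, adjusted p = 0.03), and this comparison was not recomputed under other settings. Shmt2 was higher in GS cells than at 1 week (0.60 ± 0.13, adjusted p = 0.003), and Asns, Chac1, Psat1, Sesn2 and Ddit4 were lower, while 43.4% of all genes passed, 22.4% higher and 21% lower.

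Atf4 itself was higher at 1 and 3 weeks than in the groups before them. Its signal was 101 and 111 at 0 weeks, 243 and 259.9 at 1 week, 161 and 170.3 at 2 weeks, 192 and 217 at 3 weeks, and 169 and 159 in GS cells. The 0 week arrays were lowest and the 1 week arrays highest. Atf4 rose at 1 week against 0 weeks (1.25 ± 0.09, adjusted p = 5.7e-07), fell at 2 weeks against 1 week (-0.60 ± 0.09, adjusted p = 0.0002), rose at 3 weeks against 2 weeks (0.30 ± 0.09, adjusted p = 0.029) and fell in GS cells against 3 weeks (-0.32 ± 0.09, adjusted p = 0.013). The last rise of Atf4, at 3 weeks, did not pass with median scaling (0.25, adjusted p = 0.098). Since ATF4 is controlled mainly at translation, its message does not give its protein level.

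None of the 4 kinases of eIF2alpha passed the test in the third week, and all 4 were highest at 1 week. Eif2ak4 encodes GCN2, the sensor of uncharged tRNA. It had 145 and 137 at 0 weeks, 256 and 321 at 1 week, 187 and 173 at 2 weeks, 208 and 199.6 at 3 weeks, and 206 and 242 in GS cells, and its change at 3 weeks against 2 weeks was 0.18 ± 0.12 (adjusted p = 0.29). Eif2ak3 encodes PERK, the sensor of the endoplasmic reticulum, and was highest at 1 week (303 and 300.4) and changed by -0.22 ± 0.07 in the third week (adjusted p = 0.057). Eif2ak1, the heme-regulated kinase, changed by -0.16 ± 0.08 in the third week (adjusted p = 0.15), and Eif2ak2, the kinase activated by double-stranded RNA, by 0.02 ± 0.13 (adjusted p = 0.93). All 4 rose in the first week, by 0.49 ± 0.08 for Eif2ak1, 0.96 ± 0.13 for Eif2ak2, 1.45 ± 0.07 for Eif2ak3 and 1.03 ± 0.12 for Eif2ak4, and Eif2ak1 did not pass with cyclic loess (0.14, adjusted p = 0.13). All 4 fell in the second week, by -0.22 ± 0.08 for Eif2ak1, which with quantile scaling turned to 0.04 (adjusted p = 0.69), and by -0.62 to -1.15 for the others.

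**Figure D4:**
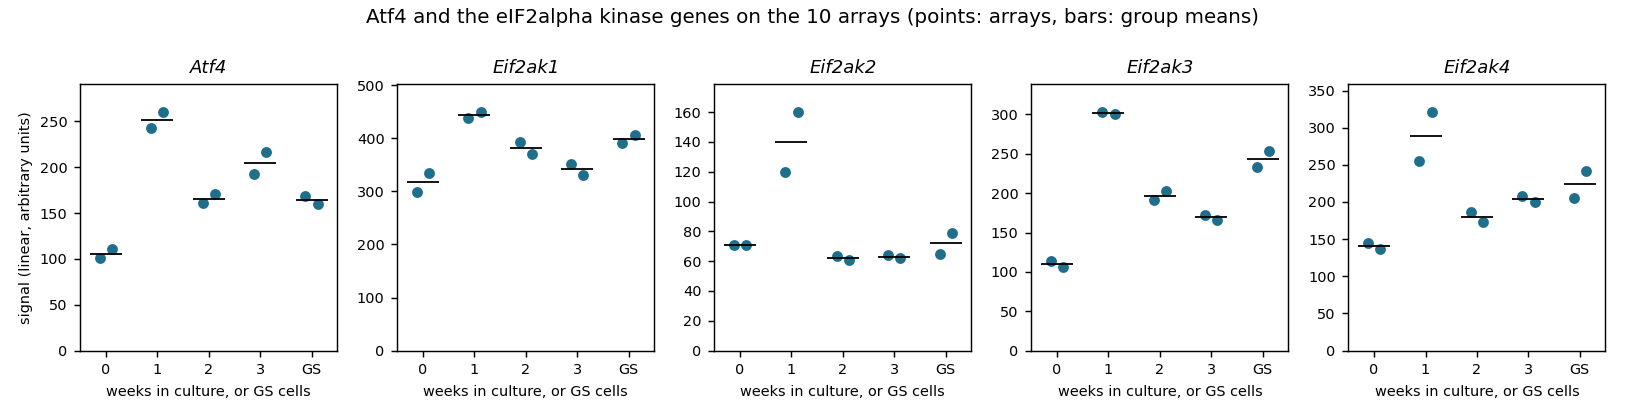
Linear signal (vertical axis, from 0) of Atf4 and the 4 eIF2alpha kinase genes on each array (points) with group means (bars). All 5 are highest at 1 week, and Atf4 stands at 192 and 217 at 3 weeks against 161 and 170.3 at 2 weeks.

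Of 9 genes for eIF2alpha, its kinases, its phosphatase subunits and partners of GCN2, 7 rose in the first week, 7 fell and 1 rose in the second, and 4 fell and none rose in the third (1 rose and 1 fell with quantile scaling). Impact, a competitor that holds GCN2 inactive, rose by 2.38 ± 0.07 at 1 week and fell by 0.57 ± 0.07 on the log2 scale at 3 weeks. Between GS cells and 3 weeks 5 of the 9 rose, among them Impact (0.96 ± 0.07). That count was 2 rising and 2 falling with quantile scaling, where Eif2ak1 (0.22 ± 0.08 as deposited) turned to -0.22, adjusted p = 0.036. Of 8 genes for ATF4 and its partners, 4 rose and 1 fell in the first week, and in the third 2 rose, Atf4 and Cebpg (0.34 ± 0.07), a C/EBP protein that pairs with ATF4. The first-week rises included Nupr1 (3.35 ± 0.08), a stress-induced chromatin protein, and Cebpb (2.38 ± 0.07), both of which fell in the second week (-2.67 ± 0.08 and -2.31 ± 0.07). Nupr1 was above its 3 week level in GS cells (1.48 ± 0.08).

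Amino acid transporters linked to ATF4 moved in both directions. Of 11 tested, 9 rose in the first week, and in the third 5 rose, 2 fell and 4 did not pass (median 0.16). Slc7a3, a transporter of cationic amino acids, had 83 and 69 at 0 weeks, 153 and 177 at 1 week, 75 and 87 at 2 weeks, 162 and 154 at 3 weeks, and 102 and 76 in GS cells. Its 1 and 3 week arrays overlapped and were above all others, and its change at 3 weeks against 2 weeks was 0.97 ± 0.15 (adjusted p = 0.0018). Slc1a4, which carries alanine, serine and cysteine, measured 192 and 195 at 3 weeks and 121 and 114 at 2 weeks (0.72 ± 0.09, adjusted p = 0.00065). Slc38a1, a glutamine carrier, fell instead in the third week (-1.12 ± 0.07), as did Slc43a1, a carrier of large neutral amino acids (-0.33 ± 0.08). In the first week the largest rises were in Slc38a1 (3.11 ± 0.07) and in Slc7a11 (2.23 ± 0.10), the cystine importer. Among transporters 5 rose and 3 fell in GS cells against 3 weeks (4 rose and 5 fell with quantile scaling), and Slc7a3 (-0.84 ± 0.15) and the glutamine carrier Slc38a2 (-0.75 ± 0.07) were among the falls.

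Cytosolic tRNA synthetases charge tRNAs with amino acids, and many are ATF4 targets. Of 18 tested, 15 rose and 2 fell in the first week (median 1.04). The largest rises were in Nars (2.34 ± 0.09) and Rars (2.34 ± 0.09), for asparagine and arginine, and the falls were Vars (-0.80 ± 0.08) and Farsa (-0.20 ± 0.07, not passing with median scaling). In the third week 4 rose and 4 fell, but 9 rose and none fell with quantile scaling and 8 rose and none fell with cyclic loess. Yars (0.50 ± 0.10) and Nars (0.45 ± 0.09) rose in that week, and Dars (-0.45 ± 0.15) and Hars (-0.39 ± 0.08) fell, neither of the falls passing with quantile scaling. Synthetases rose in 5 cases and fell in 1 in GS cells against 3 weeks, whereas with quantile scaling 1 rose and 12 fell.

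Among 12 other enzymes of serine, glycine and one-carbon metabolism, 7 rose and 2 fell in the first week, and 1 rose and 2 fell in the third. Mthfd2, a mitochondrial folate enzyme and known ATF4 target, rose by 1.31 ± 0.08 and 0.29 ± 0.08 in those weeks, the second of these not passing with median scaling (0.24, adjusted p = 0.086). Shmt1, the cytosolic partner of Shmt2, fell in the first week (-0.69 ± 0.06) and rose in the second (1.34 ± 0.06). Mthfd1 (-0.46 ± 0.08) and Gldc (-0.40 ± 0.10), of cytosolic folate and of glycine breakdown, were the falls at 3 weeks. Of 11 further amino acid enzymes 8 rose and 2 fell in the first week and 2 rose and 1 fell in the third. Bcat1, the branched-chain aminotransferase, rose by 2.78 ± 0.08 at 1 week and fell by 2.64 ± 0.08 on the log2 scale at 2 weeks, and Aldh18a1, of proline synthesis, rose by 1.91 ± 0.08 in the first week and 0.24 ± 0.08 in the third (not passing with median scaling, 0.19, adjusted p = 0.19). Gpt2, an alanine aminotransferase, fell in the first week (-0.56 ± 0.11) and rose in the third (0.50 ± 0.11, not passing with quantile scaling, adjusted p = 0.051).

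Genes of the other arms of the unfolded protein response, which answer misfolded protein in the endoplasmic reticulum through XBP1 and ATF6, fell in 8 of 13 cases in the third week. Hspa5, the chaperone BiP, measured 968 and 1063 at 3 weeks, against 1463 and 1435 at 2 weeks (-0.51 ± 0.07, adjusted p = 0.0011). Of 13 tested, none rose, 8 fell and 5 did not pass (median -0.42), and the fall was counted in 4 with quantile scaling and 3 with cyclic loess. Edem1 (-1.05 ± 0.10) and Ern1 (-0.56 ± 0.08), of protein disposal and of stress sensing, had the largest falls. Between GS cells and 3 weeks 12 of the 13 rose and 1 fell (9 rose and 1 fell with quantile scaling), with Hspa5 at 1.07 ± 0.07 and Edem1 at 1.26 ± 0.10. In the first week 10 rose and 2 fell, Xbp1 (1.68 ± 0.08) and Edem1 (1.61 ± 0.10) leading the rises.

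**Figure D5:**
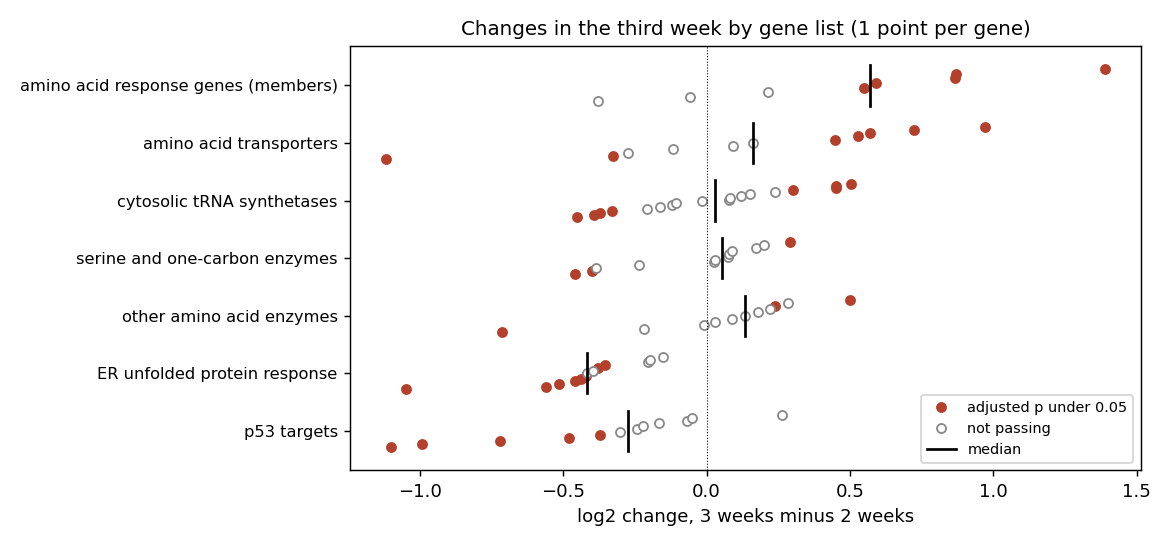
Log2 change at 3 weeks minus 2 weeks (horizontal axis) of each gene (points) in 7 lists (rows), with the list median as a bar. The members' median is 0.57, and the medians of the unfolded protein response and p53 lists are -0.42 and -0.27.

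Lists of targets of other inducers of Ddit4 and Sesn2 were set beside them, and whether any of these inducers acted here was not tested. Of all genes 30.3% rose and 27.5% fell in the first week, and 7.71% rose and 16.5% fell in the third. Targets of p53 rose in 11 of 12 cases in the first week (median 2.28), with Cdkn1a, the cell cycle inhibitor p21, at 3446 at 1 week and 174 at 0 weeks and Ccng1 at 4383 and 319. In the third week 5 of the 12 fell and none rose (1 rose and 3 fell with quantile scaling), Cdkn1a by -1.10 ± 0.10 and Ccng1 by -0.99 ± 0.18. Hypoxia targets rose in 9 of 11 cases in the first week (median 1.21), with the glucose transporter gene Slc2a1 at 3.55 ± 0.09, and in the third 2 rose, Bnip3 (0.97 ± 0.14) and Pdk1 (0.30 ± 0.07, not passing with median scaling), and 2 fell. Of 5 glucocorticoid targets 4 rose and 1 fell in the first week, and 1 rose and 3 fell in the third. Of 10 other inhibitors of mTORC1 and sestrins, 3 rose and 5 fell in the first week and 3 fell and none rose in the third. Among 4 relatives of Trib3 and Chac1, Trib1 (1.77 ± 0.09) and Trib2 (0.75 ± 0.10) rose in the first week, and in the third Trib1 fell (-1.02 ± 0.09) and Trib2 rose (0.40 ± 0.10). Of 14 further stress or ATF4 targets 11 rose and 1 fell in the first week. In the third week 3 rose and 3 fell (5 and 2 with quantile scaling), with Herpud1 (0.97 ± 0.09), a protein of endoplasmic reticulum disposal, and Eif4ebp1 (0.47 ± 0.07), an inhibitor of cap-dependent translation, among the rises.

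Across the 10 arrays each member was set against 6974 other genes whose group means spanned at least 1 on the log2 scale, and the gene with the highest Pearson r was named as a description. Trib3 was nearest to the amino acid transporter gene Slc7a3 (r = 0.837), and Chac1 and Psat1 were both nearest to Id1 (r = 0.878 and 0.960), which encodes an inhibitor of DNA-binding factors. Id1 averaged 155 at 0 weeks, 358 at 1 week, 195 at 2 weeks, 366 at 3 weeks and 238 in GS cells. Asns was nearest to Ttyh2 (r = 0.963), Shmt2 to Uxt (r = 0.995), Phgdh to Ptk7 (r = 0.989), Sesn2 to Gnptab (r = 0.996) and Ddit4 to Mbnl2 (r = 0.994). The arrays fall into 5 groups, so these r values describe group profiles and carry no p.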

How the data were processed

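RNA of 10 samples was measured on Affymetrix Mouse Gene 1.0 ST arrays. The deposited values are intensity on a linear scale for 28856 transcript clusters, and the annotation release is na32, mm9, per the file headers. How the authors corrected, summarised and normalised the intensities is not stated in what was used here. A ratio (fold) of 3 weeks over 0 weeks stands in the authors' deposited table, beside 2 means that match geometric means of the arrays to within 8.9e-07.

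Intensities were turned into log2 with a floor of 1 (0 values lay under it). Of the clusters, 22439 had 1 gene symbol, and the brightest cluster stood for each of 1333 genes with several, which left 20174 genes. Symbols were updated through a RefSeq table (GRCm38.p6, names only). All 5 groups were fitted together in R 4.3.3 by lmFit and eBayes of limma 3.58.1, leaving 5 residual degrees of freedom, with Benjamini-Hochberg adjustment over the 20174 genes and a threshold of 0.05. A change is a log2 difference ± SE. Of the 10 contrasts, 2 (3 weeks and GS cells against 1 week) were added to order the groups. The code was tested on simulated data. The number of arrays, 2 a group, limits the precision.

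Members and lists were chosen with earlier results of these data known. From each list the text names up to 2 genes each way with the largest passing change in a comparison, with Atf4 and the eIF2alpha kinase genes always; Hspa5 was chosen after its values were seen. As an exception to the rule, a list gene that it selects is not reported here. The 8 planned comparisons, but not the 2 added ones, were recomputed with other scalings between arrays (quantile, median, cyclic loess), without dim genes, with clusters averaged, with trended robust eBayes, with log2 of the signal plus 16, with the replicate number as a block, with only the groups compared, and without each array in turn.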

Additional observations from a re-analysis of the deposited data

How the results depend on the processing

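The 8 planned comparisons were each recomputed under 19 alternatives, 10 of them leaving out 1 array. The comparisons of 3 weeks and GS cells with 1 week were not recomputed. Of 1216 member values, 1159 stayed on their side of the threshold without a reversal, 31 no longer passed, 24 newly passed and 2 reversed. A change of sign counted as a reversal only if the value passed as reported or under the alternative. Values that passed in neither could change sign uncounted, such as Asns at 2 weeks against 0 weeks (-0.03 as reported, up to 0.08). With 1 array left out, 17 of the member values no longer passed, 10 newly passed and none reversed. The reversals were Sesn2 in GS cells against 3 weeks, 0.09 as reported but -0.31 with quantile scaling (adjusted p = 0.011) and -0.24 with cyclic loess (adjusted p = 0.036). Eif2ak1 also reversed, at 2 weeks against 1 week to 0.038 with quantile scaling (adjusted p = 0.69), and in GS cells against 3 weeks to -0.22 with quantile scaling (adjusted p = 0.036) and -0.15 with cyclic loess (adjusted p = 0.13). For GS cells against 2 weeks, 1 member passed with quantile, median or cyclic loess scaling, against 3 as reported. Over all genes, the number passing there stayed within 1.5 times of the 4253 reported under each of these scalings. Whether the members dropped more than other genes was not tested. At 3 weeks against 2 weeks, 2834 genes passed with cyclic loess (1553 higher and 1281 lower), against 4875 as reported (1555 higher and 3320 lower). The cause was not tested in these cases.

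With 1 array left out, the genes called ranged from 1918 to 5842 at 3 weeks against 2 weeks, lowest without 2 weeks replicate 1, with 2068 without 2 weeks replicate 2 and 2653 without 3 weeks replicate 1. They ranged from 2074 to 4456 for GS cells against 2 weeks, with 2140 without 2 weeks replicate 1 and 2074 without 2 weeks replicate 2. Members called ranged from 3 to 6 for GS cells against 3 weeks, lowest without 3 weeks replicate 1, and from 1 to 3 for GS cells against 2 weeks, lowest without either 2 weeks array. The genes called for GS cells against 3 weeks also varied with the array left out. Whether the members dropped more than other genes was not tested. Where a group is left with 1 array, that array is assumed to vary like the other groups. Median scaling moved the median change of all genes at 2 weeks against 0 weeks to 0.14, against 0.03 as reported.

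The labels give the groups the same replicate numbers without saying that a number marks a shared animal, batch or day. The replicate differences of 2 groups correlated across genes at r = 0.31 to 0.584 in the pairs among 0 weeks, 1 week, 3 weeks and GS cells, and at r = -0.067 to -0.024 in the pairs with 2 weeks. Since the labels do not state a pairing and not every pair of groups showed one, the numbers were not taken to pair the samples. With the replicate number as a block, Trib3 newly passed at 2 weeks against 1 week (-0.27, adjusted p = 0.04). Shmt2 newly passed at 3 weeks against 2 weeks (-0.38, adjusted p = 0.0045) and in GS cells against 3 weeks (0.26, adjusted p = 0.017). Ddit4 newly passed in GS cells against 2 weeks (0.25, adjusted p = 0.048). The share of all genes passing with the block is not reported here. Signals close to the lower quartile of an array have no stated background to be judged against, which limits the dimmer list genes. Trib3 lay near or above the array medians (112 to 125.3), where no background is stated either.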
